A study of Mus musculus with 11 samples.

Results

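The genotype difference of the doxorubicin response was measured in mouse tumours, that is, how far the change in gene expression after doxorubicin (DX) in Fpr1-/- hosts (KO) departed from the change in wild-type hosts (WT). For each gene it was the DX minus PBS difference in KO hosts minus the same difference in WT hosts. All 11 of the 11 arrays of the series entered it, because it needs all 4 groups, and it was taken for each of 10623 genes. The groups were KO DX (2 tumours), KO PBS (3), WT DX (3) and WT PBS (3). Every host was a C57BL/6 mouse aged 10 to 12 weeks that carried a subcutaneous MCA fibrosarcoma, and the genotypes were FPR1-/- and wt. A tumour of 25 to 45 mm2 was injected with 2.9 mg/kg DX in 50 µL of PBS, and tumours were taken on day 2. The controls are labelled PBS. The receptor was missing from the host, and the labels do not say what the inoculated tumour cells carried. The source names give each tumour its own MCA number, 205 to 215, and whether these are separate lines is not stated. Nothing in the labels says how the replicates of a group were kept apart beyond being separate samples, so the p-values measure the spread between these samples, which may be partly technical.

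FPR1 is a formyl peptide receptor found on neutrophils, monocytes and some dendritic cells, where it senses formylated peptides and annexin A1 and guides cells to dying cells and sites of injury. Doxorubicin is an anthracycline that damages DNA, sets off the p53 response and is known for a form of tumour cell death that attracts leukocytes. The comparison addresses whether the host's receptor alters what a tumour expresses soon after the drug. No probe used here was named Fpr1, so the deletion itself was not analysed here.

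Between 16169 and 18221 of 45281 probes were detected per array, and arrays of 1 group correlated at 0.976 to 0.992. Both arrays of chip 2 (KO PBS 2 and WT PBS 1) were dimmer, with median signals of 118 and 110, against 151 to 169 on the others. Eif2s3y, a Y-linked gene, gave signal on WT DX 2 and WT PBS 3 only. Chip 4 carried both KO DX arrays and no KO PBS array, and no chip held all 4 groups, so the difference could not be taken within a chip. All 19 fibroblast markers listed for the labelled fibrosarcoma were measured. In this bulk RNA, fewer cells of a type and less RNA per cell cannot be told apart.

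No gene differed in its DX response between KO and WT hosts after adjustment. Of 10623 genes, 0 had an adjusted p under 0.05 in limma (0%), and the smallest adjusted p was 0.11, for Clec2d, followed by 0.567 for Cxcl1. At an unadjusted p under 0.05 there were 498 genes (4.69%), against 531 expected if no gene differed. The response was lower in KO hosts for 268 of them (2.52%) and higher for 230 (2.17%). Over all genes the median difference was 0.02 on the log2 scale, where 1 is a 2-fold change, with a 5th percentile of -0.61 and a 95th of 0.49. The tails were unequal: 134 genes lay below -1 and 48 above 1. Of these, 91 and 43 had an unadjusted p under 0.05. The 498 became 293 without KO DX 2, 977 without WT DX 2 and 772 without WT PBS 1. With the log2 table that the authors had processed in place of the intensities, 5843 genes (55%) passed the adjusted threshold, 2575 with a lower and 3268 with a higher response. The median residual SD was 0.0723 in that table and 0.224 here, and its WT DX 2 and WT PBS 2 columns equalled the mean of the other two of their group for all probes. Without those columns 4007 genes passed and the residual SD was 0.0856. What else made its spread smaller was not tested.

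**Figure D1:**
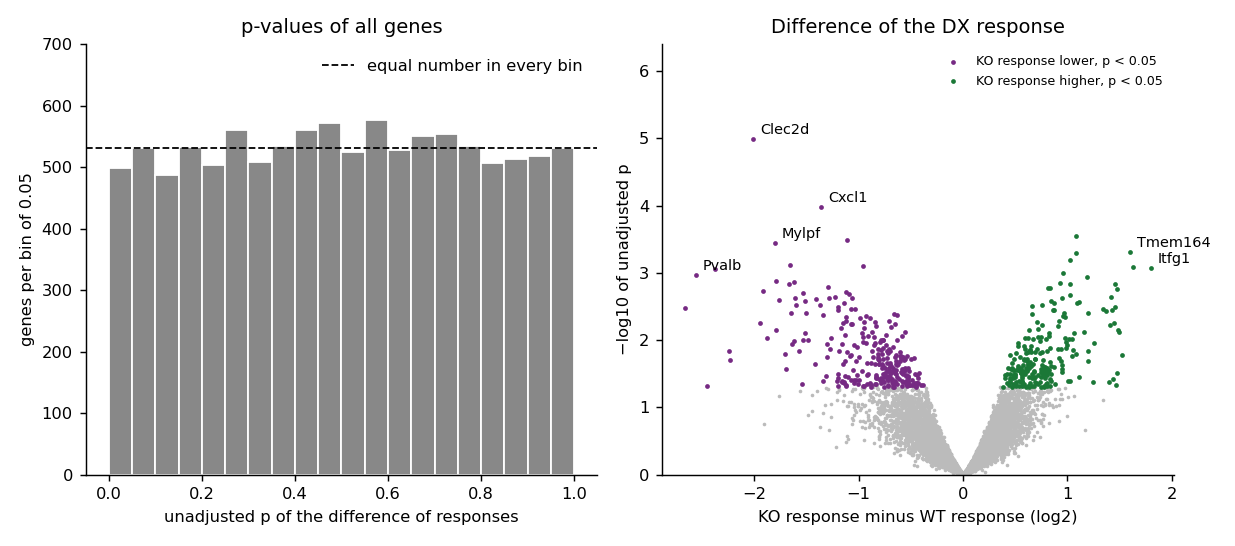
Left, number of genes in each p-value bin of width 0.05 for the difference of responses, with a dashed line at equal numbers. Right, difference of the DX response (KO minus WT, log2) against -log10 of its unadjusted p, 1 point per gene; the first bin holds 498 genes, below the 531 of the line, and Clec2d stands highest.

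Many differences were bounded, though far fewer with the chip as a fixed block. The median standard error of the difference was 0.27, against 0.20 for the DX response in KO hosts and 0.18 in WT hosts, and the median 95% interval reached 0.59 either side. For 7446 genes (70.1%) the whole interval lay between -1 and 1, which bounds the difference to less than 2-fold, and for 5 genes it lay wholly outside. The remaining genes were not bounded at that size. With the chip as a fixed block the bounded genes numbered 1420. They numbered 7149 with the chip as a random block, where the correlation within a chip was 0.13. Of the 66 genes that changed with DX in WT hosts (0.621%), only 11 had such a bounded difference, so their responses in KO hosts could be neither separated from nor equated with those in WT hosts. In KO hosts, where there were 2 DX arrays, 0 genes passed (0%). The counts of 66 and 0 do not by themselves show a difference between the genotypes. The test of the difference passed for 0 genes, which does not show equality either.

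Each difference of responses can be read as a gap between KO and WT tumours under DX minus the same gap under PBS. Among the 268 genes with a lower response in KO hosts, the gap was larger under DX for 187 and under PBS for 81. Among the 230 with a higher response, it was larger under DX for 151 and under PBS for 79. These genes were picked by the difference itself, so the counts describe them and test nothing. The named genes fell into both kinds: for Clec2d and muscle genes the genotypes parted mainly under DX, and for Cxcl1, S100a8, S100a9 and Il1b mainly under PBS.

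**Figure D2:**
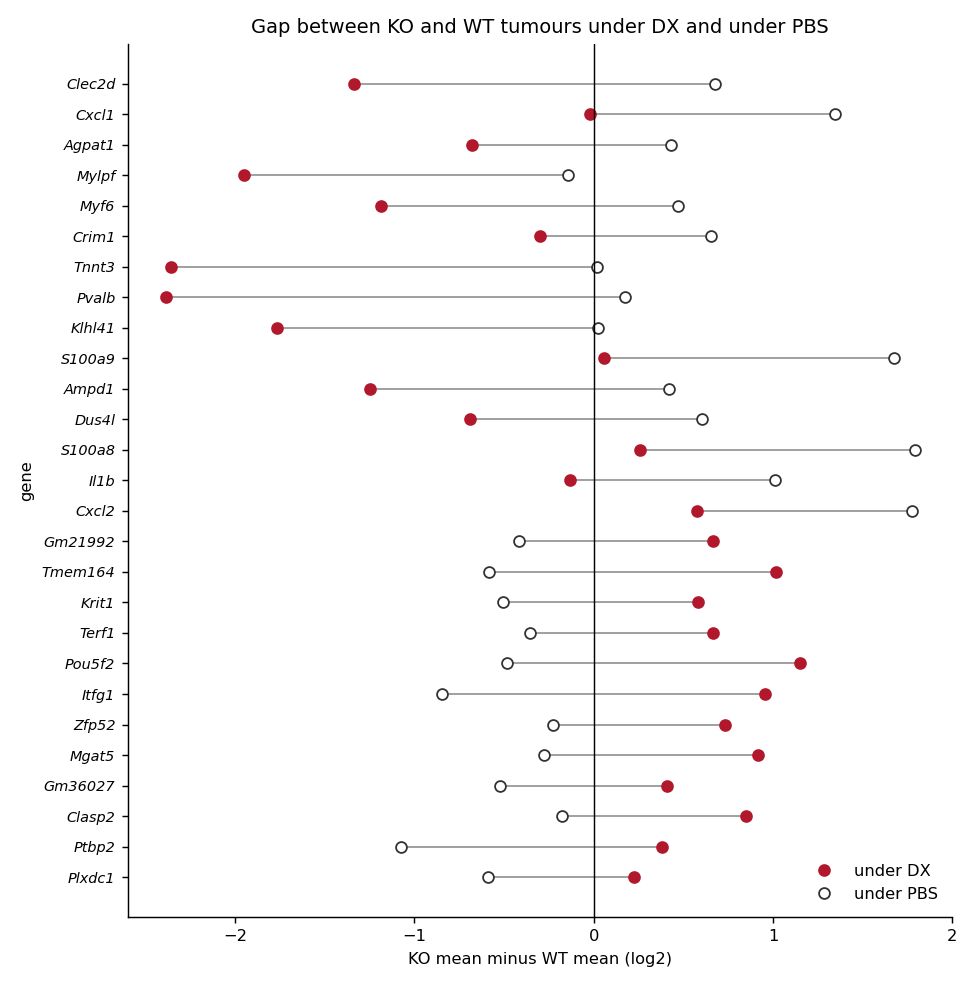
Gap between KO and WT group means (log2) under DX (filled) and under PBS (open) for the 12 genes of smallest p with a lower response in KO hosts, then S100a8, Il1b and Cxcl2, then the 12 with a higher response. For Cxcl1 the DX gap is -0.02 and the PBS gap 1.34, while for Mylpf the DX gap is -1.95 and the PBS gap -0.14.

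Clec2d, which encodes the C-type lectin Clr-b that inhibits natural killer cells through NKR-P1 receptors, had the smallest p of all genes. It stood at 7.22 and 7.21 (normalised log2 intensity) in KO DX tumours and at 8.13, 7.47 and 7.41 in KO PBS tumours. In WT DX tumours it was at 8.59, 8.47 and 8.60, and in WT PBS tumours at 6.92, 7.05 and 7.02. The WT DX tumours were above all the others, the KO PBS tumours came next, and the KO DX tumours lay just above the WT PBS tumours. The DX response was -0.46 in KO hosts and 1.56 in WT hosts, where Clec2d rose (adjusted p = 0.00292), and the difference was -2.01 ± 0.26 (SE; 95% interval -2.60 to -1.43). It did not pass across all genes (adjusted p = 0.11 in limma). Without the array KO PBS 1, the highest of its group, the difference was -1.78 with an adjusted p of 0.0214, and with array weights or a trended, robust variance model the adjusted p was 0.0384 and 0.043.

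Cxcl1 had the next smallest p, and further genes of neutrophils and inflammation stood among those with a lower response. Cxcl1, a chemokine that draws neutrophils through CXCR2, was at 11.42 and 11.12 in KO DX tumours and at 10.95, 10.80 and 11.05 in KO PBS tumours. It was at 11.17, 11.45 and 11.24 in WT DX tumours and at 9.84, 9.53 and 9.40 in WT PBS tumours. The KO DX and WT DX tumours overlapped, and the WT PBS tumours lay below every other array. Cxcl1 rose in WT hosts by 1.70 (adjusted p = 0.000611), the KO response was 0.33, and the difference of -1.36 ± 0.23 (SE) had an adjusted p of 0.567.

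S100a9, a subunit of calprotectin stored in neutrophils, was at 10.76 and 10.13 in KO DX tumours and at 9.08, 8.56 and 9.03 in KO PBS tumours. In WT hosts it was at 9.99, 10.32 and 10.85 after DX and at 7.45, 6.89 and 7.30 after PBS. Again the DX tumours of both genotypes overlapped and the PBS tumours did not. Its response was 1.56 in KO hosts and 3.17 in WT hosts, a difference of -1.62 ± 0.38 (SE). The partner subunit S100a8 had a difference of -1.54 ± 0.38, with KO minus WT gaps of 0.26 under DX and 1.79 under PBS. Lcn2, an iron-binding protein of neutrophil granules and inflamed epithelium, had a difference of -1.87 ± 0.59, with gaps of 0.47 under DX and 2.35 under PBS. Cxcl2, a further CXCR2 ligand, had a difference of -1.20 ± 0.52 (-0.22 in the authors' table). The -1.20 came from a response of 2.59 in KO hosts and 3.79 in WT hosts. Its gaps were 0.57 under DX and 1.78 under PBS. Il1b, the inflammatory cytokine of myeloid cells, had a difference of -1.15 ± 0.33 with gaps of -0.13 under DX and 1.01 under PBS. For these 6 genes the KO tumours were thus already the higher ones under PBS.

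The platelet basic protein gene Ppbp showed another pattern, with a gap of -1.34 under DX. It was at 9.13 and 7.39 in KO DX tumours and at 9.65, 9.38 and 9.78 in WT DX tumours. Both KO values lay below the WT values, and they were far apart. Ppbp was not detected on any PBS array of either genotype, so the size of its difference, -1.62, is not exact. It also hung on the 2 KO DX arrays, at -2.49 without KO DX 1 and -0.74 without KO DX 2.

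Of 14 measured neutrophil genes of a list of 24, 4 had a lower response in KO hosts at unadjusted p under 0.05, beside 2.52% of all genes, and none had a higher one. The median difference of the 14 was -0.48, beside 0.02 over all genes, and -0.20 without KO DX 2. Of the 14, 12 lay below 0 and 2 above. The list was not uniform: Csf3r was at -0.03, Cxcr2 at -0.08, Trem1 at 0.01 and Ltf at 0.67. The median response was 0.80 in KO hosts and 1.12 in WT hosts. The list's summed intensity ran from 9717 to 13544 in KO DX tumours and from 7748 to 8056 in KO PBS tumours. It ran from 10115 to 16303 in WT DX tumours and from 4578 to 6314 in WT PBS tumours. The DX ranges overlapped and the PBS ranges did not. Of 26 measured chemokines of 30, 4 were lower and none higher at that threshold, 24 had a difference below 0, beside 47.4% of all genes, and the median was -0.59. The lowest value of all 10623 genes was a chemokine's: Cxcl13, which draws B cells, had a difference of -2.66 ± 0.72. Of 24 measured interleukin, TNF and NF-kB feedback genes, with a median of -0.38 (-0.21 without WT DX 3), 3 were lower (Il1b, the NF-kB inhibitor gene Nfkbia at -0.61, and Il10, an anti-inflammatory cytokine not detected in KO DX tumours, at -1.03) and 1 was higher. That one was the granulocyte growth factor gene Csf3, at 0.68 and not detected on any KO array.

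**Figure D3:**
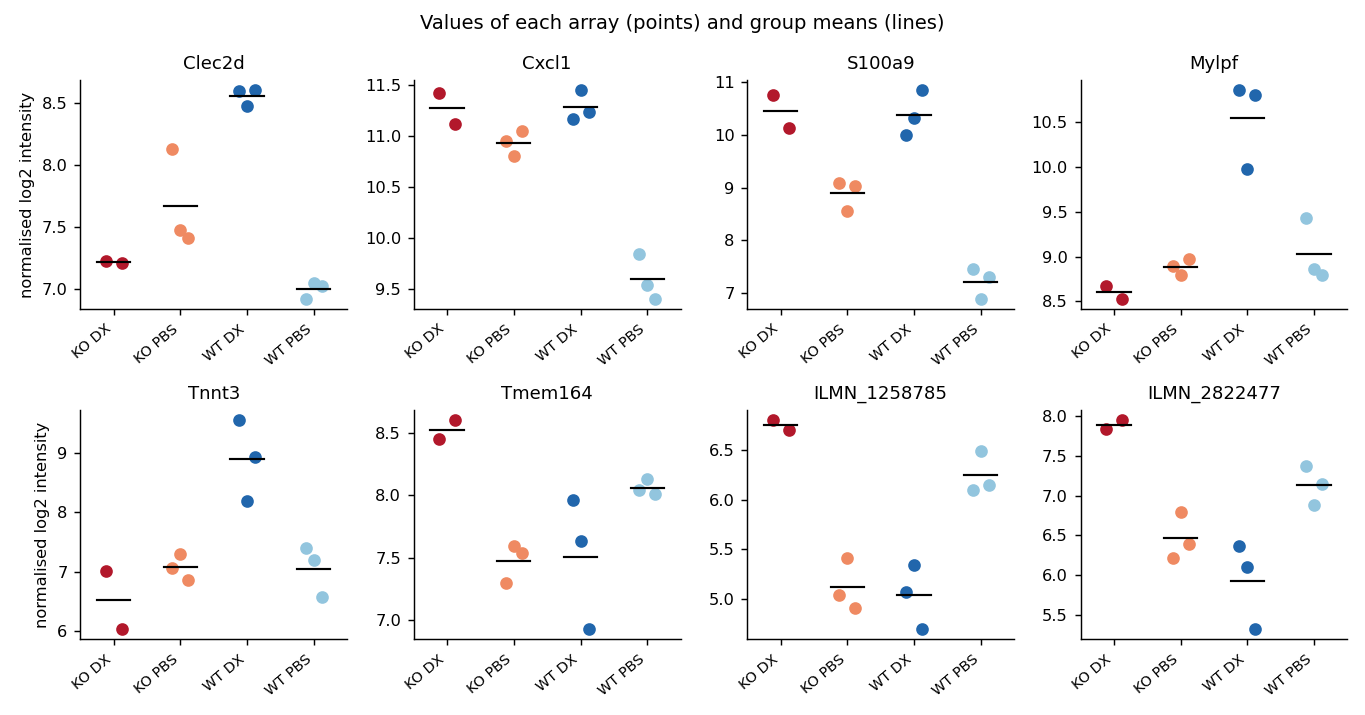
Normalised log2 intensity of each array (points) with group means (lines) for 6 genes and 2 probes without a gene name, in KO DX, KO PBS, WT DX and WT PBS tumours. WT PBS tumours stand apart in Cxcl1 and S100a9, and WT DX tumours in Clec2d, Mylpf and Tnnt3.

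Skeletal muscle genes made up 6 of the 12 named genes with a lower response: Mylpf, Myf6, Tnnt3, Pvalb, Klhl41 and Ampd1. Mylpf, a regulatory light chain of fast muscle myosin, was at 8.67 and 8.53 in KO DX tumours and at 8.89, 8.79 and 8.97 in KO PBS tumours. It was at 10.86, 9.98 and 10.81 in WT DX tumours and at 9.43, 8.86 and 8.80 in WT PBS tumours. The WT DX tumours lay above all others, and the KO DX tumours were the lowest. Mylpf rose by 1.52 in WT hosts (adjusted p = 0.0264), the KO response was -0.28, and the difference was -1.80 ± 0.36 (adjusted p = 0.639). With array weights it passed, at an adjusted p of 0.0384. A further probe of Mylpf gave -2.19.

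Tnnt3, troponin T of fast fibres, was at 7.02 and 6.04 in KO DX tumours and at 7.07, 7.30 and 6.86 in KO PBS tumours. WT DX tumours had 9.54, 8.19 and 8.93, and WT PBS tumours 7.40, 7.19 and 6.57. As for Mylpf, only the WT DX tumours stood apart. The difference was -2.37 ± 0.53 for Tnnt3, -2.56 ± 0.58 for Pvalb, the calcium buffer of fast fibres, and -1.65 ± 0.36 for Myf6, a transcription factor of muscle cells. Klhl41, a sarcomere-associated kelch protein, had -1.79 and Ampd1, the AMP deaminase of muscle, -1.67, with -0.62 on a further Ampd1 probe. Myf6, Klhl41 and Ampd1 were not detected on any WT PBS array, and Klhl41 on no KO DX array, so their sizes are not exact.

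Of 21 measured muscle genes of a list of 25, 14 had a lower response in KO hosts at unadjusted p under 0.05, none had a higher one, and 19 lay below 0. The background for the lower direction was 2.52% of all genes. The median difference was -1.57, from a median response of -0.28 in KO hosts and 1.31 in WT hosts. Summed intensity ran from 6833 to 9261 in KO DX tumours and from 7975 to 8651 in KO PBS tumours. It ran from 16343 to 29928 in WT DX tumours and from 8369 to 12279 in WT PBS tumours. All WT DX tumours thus held more muscle RNA than any other tumour, and 13 of the 21 genes were detected on every array. The part of this muscle signal in the lower responses of other genes was not tested.

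**Figure D4:**
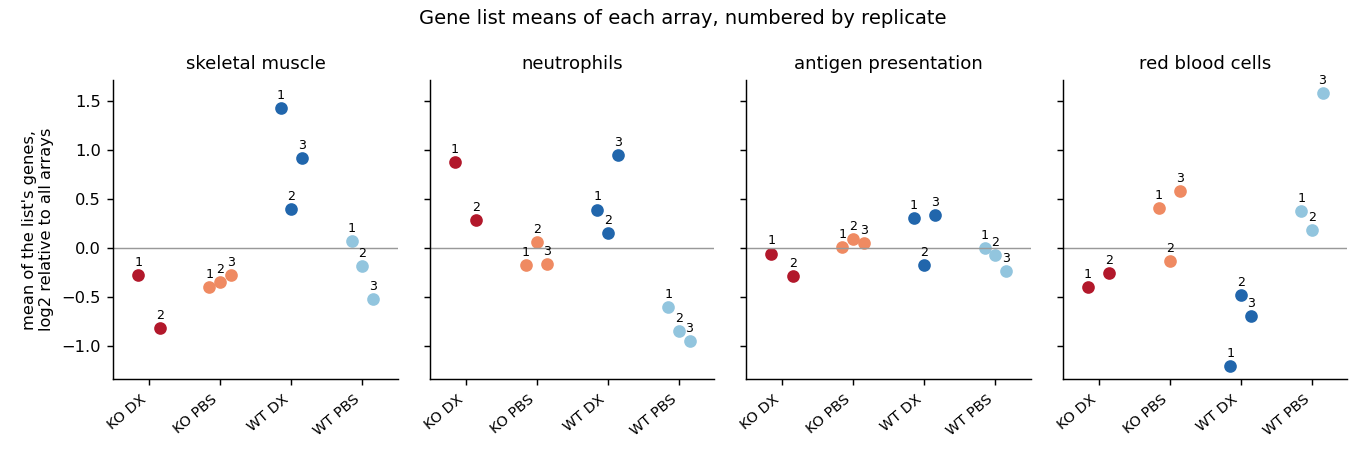
Mean of the log2 values of each list's measured genes on each array, relative to the mean of all arrays, with points numbered by replicate, for KO DX, KO PBS, WT DX and WT PBS tumours. WT DX tumours are highest for skeletal muscle, WT PBS tumours lowest for neutrophils, and WT PBS 3 highest for red blood cells.

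Monocyte, macrophage and antigen presentation genes had smaller differences that nearly all ran one way. All 23 measured monocyte and macrophage genes had a difference below 0, beside 47.4% of all genes. Beside 2.52% of all genes, 4 of the 23 were lower at unadjusted p under 0.05. These were Ccr2, the receptor that brings monocytes out of the marrow, at -0.82, the complement gene C1qa at -0.70, the Fc receptor gene Fcgr1 at -0.67 and the integrin gene Itgam at -1.14. The list's median was -0.47 (-0.29 without WT DX 3), from a median response of 0.00 in KO hosts and 0.47 in WT hosts. Ccr2 and Fcgr1 rose in WT hosts, by 1.10 and 0.93 (adjusted p = 0.0301 and 0.0489). Members of a cell type list share their cells and the same 11 arrays, so they are not separate observations.

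Of 29 measured antigen presentation genes, 28 lay below 0, 5 were lower at unadjusted p under 0.05, beside 2.52% of all genes, and none was higher. Their median was -0.52, and -0.34 without KO DX 2. The median response was -0.16 in KO hosts and 0.23 in WT hosts. Tapbp, the tapasin gene whose product loads peptides on MHC class I, was at 8.44 and 8.50 in KO DX tumours and at 9.78, 9.46 and 9.85 in KO PBS tumours. It was at 9.49, 8.96 and 9.55 in WT DX tumours and at 9.65, 9.38 and 8.96 in WT PBS tumours. The 2 KO DX tumours lay below all 9 others. Its difference was -1.23 ± 0.31 (adjusted p = 0.639). Psmb8, an immunoproteasome subunit, had -0.80, Cd40, the co-stimulatory receptor of antigen-presenting cells, -0.77, and the non-classical class I gene H2-T23 -0.53.

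Type I interferon genes held a few members with low p. Of 30 measured type I interferon genes, 3 were lower, beside 2.52% of all genes, and none higher. Their median of -0.24 was -0.03 without WT PBS 3 and -0.02 without both arrays with Eif2s3y signal. Ifit1bl1, of the IFIT family of interferon-induced genes, was at 8.48 and 8.56 in KO DX tumours and at 7.46, 7.91 and 7.09 in KO PBS tumours. In WT hosts it was at 9.42, 9.38 and 9.42 after DX and at 7.31, 7.42 and 7.20 after PBS. The PBS tumours overlapped, and both KO DX tumours lay between the PBS tumours and the WT DX tumours. Its response was 1.04 in KO hosts and 2.09 in WT hosts, where it rose (adjusted p = 0.000545), and the difference was -1.06 ± 0.27 (adjusted p = 0.639). Ifi205, of the interferon-inducible p200 family, had a difference of -1.07, and Zbp1, a sensor of Z-form nucleic acids, one of -1.54. Of 20 measured interferon gamma targets 1 was lower, with a median of -0.41, and Cxcl10, a chemokine for T cells, had -0.69 ± 0.32. A further probe of Cxcl10 gave -0.21.

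Lymphocyte lists held lower medians but few genes past the threshold. None of 12 T cell genes and none of 14 NK cell and cytotoxic genes had an unadjusted p under 0.05, with medians of -0.56 and -0.30. Without KO DX 2 the T cell median was -0.15, and without WT DX 3 the NK cell median was 0.04. Cd3e, a chain of the T cell receptor complex, had a difference of -0.63 with an interval of -2.38 to 1.11, and Ifng, the cytokine interferon gamma, one of -0.16 with an interval of -1.52 to 1.19. Both intervals include more than 2-fold in either direction, so neither difference was resolved. Of 13 dendritic cell genes 1 was lower and 1 higher, beside 2.52% and 2.17% of all genes. The lower one was Batf3, a transcription factor of cross-presenting dendritic cells, at -0.62 (-0.18 without background correction). The higher one was Siglech, a plasmacytoid dendritic cell marker, at 0.81 (0.10 in the authors' table). Itgax, the CD11c gene, had 0.27 with an interval of -0.58 to 1.12. The 4 measured B cell genes of 14 had a median of -0.63, and Cd79b, of the B cell receptor, had -1.64, with 1 KO PBS tumour at 8.03 and the other two at 6.37 and 6.52.

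The receptor's own pathway showed little that the arrays could resolve. Of 18 measured genes for formyl peptide receptors, their ligands and danger sensors, 1 was lower, beside 2.52% of all genes, and none higher. The lower one was Ager, which encodes the danger signal receptor RAGE, at -0.73 (-0.04 in the authors' table). The list's median was -0.23. Fpr2, a relative of Fpr1, was at 10.86 and 10.33 in KO DX tumours and at 10.43, 10.35 and 10.72 in KO PBS tumours. It was at 10.54, 10.69 and 11.65 in WT DX tumours and at 10.67, 10.25 and 10.14 in WT PBS tumours. All 4 groups overlapped, 1 WT DX tumour was the highest, and the difference was -0.51 ± 0.42. Anxa1, the annexin A1 gene, had a difference of 0.08 with an interval of -0.56 to 0.71, which lies inside -1 to 1, and its sign depended on the array left out. Calr, the calreticulin gene, had -0.31 with an interval of -0.78 to 0.15.

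For targets of p53, the leading example had a bounded difference on its brightest probe. Cdkn1a, the p21 gene that p53 switches on, was at 11.22 and 10.91 in KO DX tumours and at 10.03, 9.70 and 10.00 in KO PBS tumours. It was at 11.50, 11.29 and 11.69 in WT DX tumours and at 10.23, 9.99 and 9.93 in WT PBS tumours. All DX tumours lay above all PBS tumours, with the KO DX tumours just below the WT DX tumours. The response was 1.16 in KO hosts and 1.44 in WT hosts, and the difference of -0.29 ± 0.24 had an interval of -0.81 to 0.24. Further probes of Cdkn1a gave larger differences, -0.51 ± 0.25 and -0.52 ± 0.39 (SE), so the bound holds for the brightest probe only. Of 26 measured p53 targets 1 was lower, beside 2.52% of all genes, and the list's median was -0.19. The lower one was the stress sensor gene Sesn2 at -1.12. Dlk1, a non-canonical Notch ligand gene that fell in WT hosts (-1.29, adjusted p = 0.0174), had a KO response of -1.43 and a difference interval of -0.75 to 0.46. Cstdc4, a stefin family gene, had responses of 2.00 in KO hosts and 2.18 in WT hosts, but its interval of -1.34 to 0.97 was wider.

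Lists of housekeeping functions had medians close to the median of all genes. The median difference was 0.01 for 31 cell cycle genes, 0.01 for 26 oxidative phosphorylation genes, 0.00 for 20 ribosomal protein genes and -0.05 for 23 hypoxia and glycolysis genes. Of the cell cycle genes 2 were higher, beside 2.17% of all genes. They were the ribonucleotide reductase gene Rrm2 at 0.56 and the mitotic kinase gene Plk1 at 0.46. In all, 23 of 28 lists had a median below 0 and 8 lay within 0.1 of 0. Several medians moved by over 1.5 times when 1 array was left out: those of adipocytes ran from -0.56 to -0.02, B cells from -0.92 to -0.29, dendritic cells from -0.64 to -0.28, fibroblasts from -0.39 to -0.16, immediate early genes from -0.36 to -0.16, interferon gamma targets from -0.63 to -0.21, p53 targets from -0.32 to -0.13 and formyl peptide receptor genes from -0.30 to -0.12. The lists were not independent, since some genes stand in several and all rest on the same arrays.

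**Figure D5:**
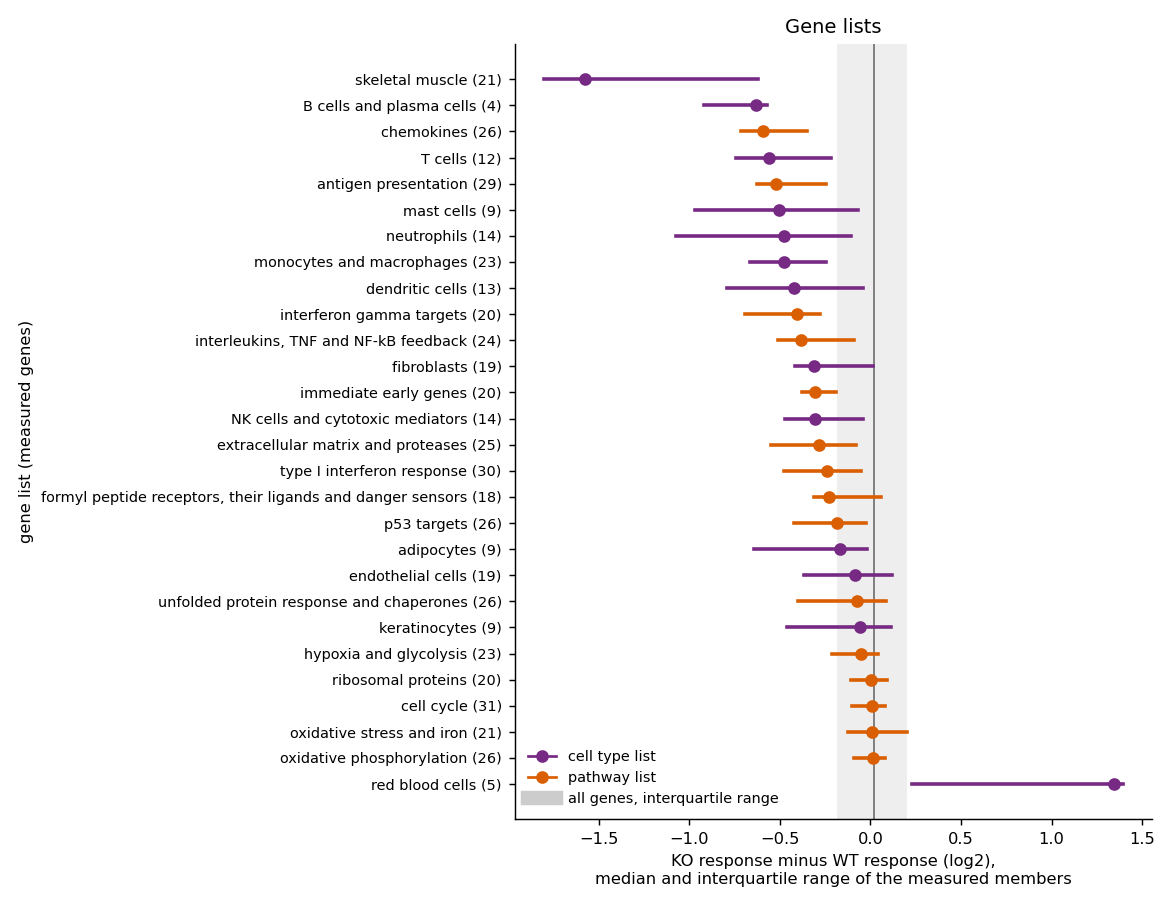
Median (point) and interquartile range (line) of the difference of the DX response (KO minus WT, log2) over the measured genes of each list, with their number in brackets and the interquartile range of all genes shaded. Skeletal muscle lies lowest at -1.57 and red blood cells highest at 1.35.

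Stress, matrix and the remaining cell type lists held 1 to 3 genes past unadjusted p 0.05. Over all genes 2.52% were lower and 2.17% higher. In a list of 9 to 25 genes, 1 gene is a larger share than that, but 1 gene alone does not set a list apart. Of 26 measured unfolded protein response genes 3 were lower, the endoplasmic reticulum chaperone genes Sdf2l1 at -0.96 and Pdia4 at -0.56 and the stress transcription factor gene Ddit3 at -0.43, and the list's median was -0.07. Of 20 immediate early genes 1 was lower, the stress-induced transcription factor gene Atf3 at -0.84, with a median of -0.31. Of 25 matrix and protease genes 1 was lower, the tenascin C gene Tnc at -0.82, and the median was -0.29. Of 19 fibroblast genes 1 was lower, the dermatopontin gene Dpt at -1.12, with a median of -0.31. Of 19 endothelial genes 1 was higher, Mmrn1, a multimerin gene, at 1.37, and it was not detected on any KO array. Of 9 mast cell genes 1 was lower, with a median of -0.50, which was -1.09 without WT DX 2 and -0.13 without WT DX 3. That gene, Hdc, makes histamine and also stands in the neutrophil list, and it had -1.12 ± 0.50, from a response of 0.98 in KO hosts and 2.10 in WT hosts, where it rose (adjusted p = 0.0264). Of 9 adipocyte genes 1 was lower, the carbonic anhydrase gene Car3 at -1.69, which muscle also expresses, with a median of -0.17. Of 9 keratinocyte genes 1 was lower, the keratin gene Krt15 at -0.82, which is not exact because it was detected on no KO DX array. The keratinocyte median was -0.06, and 0.34 without WT DX 3. Of 21 oxidative stress and iron genes none was lower and 1 higher, with a median of 0.01.

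No list held more than 2 genes with a higher response in KO hosts at unadjusted p under 0.05. The 12 named genes were Gm21992, Tmem164, Krit1, Terf1, Pou5f2, Itfg1, Zfp52, Mgat5, Gm36027, Clasp2, Ptbp2 and Plxdc1, with differences of 0.82 (Plxdc1) to 1.80 (Itfg1) and adjusted p of 0.639 each. Tmem164, a multi-pass membrane protein gene, was at 8.45 and 8.60 in KO DX tumours and at 7.30, 7.59 and 7.54 in KO PBS tumours. It was at 7.96, 7.63 and 6.93 in WT DX tumours and at 8.04, 8.13 and 8.01 in WT PBS tumours. The KO DX tumours were the highest, the WT PBS tumours came next, and the others were lower, so the responses ran opposite ways (1.05 in KO hosts and -0.55 in WT hosts). Its second probe, however, gave -0.28, against 1.60.

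Krit1, a scaffold of endothelial junctions, had a difference of 1.09 on its brightest probe, and 0.32, 0.30 and -0.21 on the others. Terf1, a telomere-binding protein, was at 9.42 and 9.44 in KO DX tumours and at 8.76, 8.92 and 8.59 in KO PBS tumours. In WT DX tumours it was at 8.98, 8.79 and 8.51, and in WT PBS tumours at 9.14, 9.10 and 9.09. Here too the KO DX tumours were highest and the WT PBS tumours next. Genes picked for a large positive difference tend to have this order, so it is not a separate result. Its difference was 1.02 ± 0.22. The responses ran in opposite directions at an unadjusted p under 0.05 in each genotype for 17 genes, of which 11 were higher after DX in KO hosts and lower in WT hosts, and 6 the reverse. For 146 genes both responses passed that threshold in the same direction. Agpat1, an enzyme that makes phosphatidic acid, was one of the 6, with a response of -0.66 in KO hosts and 0.45 in WT hosts.

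The other named genes with a lower response, beside Agpat1, were Crim1 and Dus4l. Crim1, a membrane protein that binds bone morphogenetic proteins, had -0.96 ± 0.21, and it was not detected on any KO DX or WT PBS array, so that size is not exact. Dus4l, a tRNA dihydrouridine synthase gene, was at 7.48 and 7.07 in KO DX tumours and at 8.54, 8.35 and 8.17 in KO PBS tumours. In WT DX tumours it was at 8.23, 7.91 and 7.74, and in WT PBS tumours at 7.70, 7.40 and 8.13. The KO DX tumours lay below the KO PBS tumours, the WT tumours overlapped, and the difference was -1.29 ± 0.31.

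Of the remaining named genes with a higher response, Itfg1, Ptbp2, Mgat5 and Clasp2 had gaps of opposite sign in the 2 arms. So did 213 of all 230 genes with a higher response, which were picked by the difference of those gaps. Itfg1, an integrin alpha repeat protein gene, had a KO minus WT gap of 0.96 under DX and -0.85 under PBS. Ptbp2, a splicing regulator of neurons, had gaps of 0.38 under DX and -1.08 under PBS, so its genotypes parted mainly under PBS. Mgat5, which branches N-glycans, had 0.91 under DX and -0.28 under PBS, and Clasp2, which binds microtubule ends, had 0.85 under DX and -0.18 under PBS. Pou5f2, a POU domain transcription factor gene, had a difference of 1.63 ± 0.36, and Zfp52, a zinc finger gene, 0.95 ± 0.22, with 0.11 on a further probe. Gm36027 had 0.93, and it was not detected on any KO PBS array.

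Other probes of the same gene followed the 2 directions unequally. Of the 268 genes with a lower response, 82 had 103 further probes, and 84 of these (81.6%) had the same sign. An unadjusted p under 0.05 in that direction was reached by 28 (27.2%), beside 2.52% of all genes. The median of the 103 was -0.42, against -0.77 on the brightest probes. Of the 230 genes with a higher response, 77 had 126 further probes, and 88 (69.8%) had the same sign. An unadjusted p under 0.05 in that direction was reached by 7 (5.56%), beside 2.17% of all genes. The median of the 126 was 0.19, against 0.65. Further probes read the same RNA on the same arrays and can cover other transcripts.

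Red blood cell genes made the one cell type list with a higher median in KO hosts. Of 5 measured genes of 12, 2 were higher (Hbb-bt and Hbb-bs), beside 2.17% of all genes, and the list's median was 1.35. Hbb-bt, an adult beta-globin gene, was at 10.89 and 10.77 in KO DX tumours and at 11.74, 10.98 and 12.21 in KO PBS tumours. It was at 9.27, 10.48 and 10.10 in WT DX tumours and at 12.07, 11.48 and 13.15 in WT PBS tumours. The WT DX tumours lay below all others, and the PBS tumours of both genotypes overlapped. Hbb-bt fell in WT hosts (-2.28, adjusted p = 0.0461) and the KO response was -0.82, a difference of 1.47 ± 0.65 (adjusted p = 0.993). Hbb-bs, its near-identical neighbour, had 1.40 ± 0.61, and their probes may share transcripts. The highest array of the list was WT PBS 3, and without it the median was 0.84. With the chip as a fixed block the median was 3.52, and it was 3.38 in the authors' table. Slc40a1, which encodes the iron exporter ferroportin and stands in the oxidative stress and iron list, had 1.48 ± 0.59, with 9.17 and 9.01 in KO DX tumours and 6.43, 6.89 and 6.92 in KO PBS tumours. It was at 8.37, 7.20 and 8.62 in WT DX tumours and at 7.46, 6.36 and 7.78 in WT PBS tumours, which overlapped.

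Among probes without a gene name 2 passed. Of 4181 such probes, ILMN_1258785 and ILMN_2822477 had an adjusted p under 0.05 (0.0478%), adjusted over these probes. ILMN_1258785 was at 6.80 and 6.70 in KO DX tumours and at 5.04, 5.41 and 4.91 in KO PBS tumours. It was at 5.07, 5.34 and 4.70 in WT DX tumours and at 6.10, 6.49 and 6.15 in WT PBS tumours. The KO DX tumours were highest and the WT PBS tumours next. Picking by a large positive difference favours this order, so sharing it with Tmem164 and Terf1 is not a separate result. The difference was 2.84 ± 0.31 (adjusted p = 0.00195, and 0.0153 over all 20433 kept probes). The probe was detected on no KO PBS array and on 1 of 3 WT DX arrays, so the size is not exact. ILMN_2822477 had 2.63 ± 0.39 (adjusted p = 0.025, and 0.111 over all kept probes). Neither passed with median scaling in place of quantile normalization (adjusted p = 0.107 each) or with the chip as a fixed block (0.33 each). ILMN_2822477 also missed the threshold without KO DX 1 (0.116), KO DX 2 (0.171), KO PBS 1 (0.116) or KO PBS 3 (0.0838). These probes were dimmer, with a median level of 5.59 against 8.54 for named genes, and 191 of them (4.57%) had a higher response at unadjusted p under 0.05, against 70 (1.67%) with a lower one.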

How the data were processed

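RNA of 11 mouse tumours had been measured on Illumina bead arrays. Per the file headers, the deposited probe table holds a non-normalized intensity for each probe on each array and beside it a detection p-value. A second deposited table holds log2 values processed by the authors. Per the submitters' processing notes Partek was used; the steps taken in it are not given in the sources used here.

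Intensities were background-corrected, quantile normalized and logged with neqc (offset 16) in limma 3.58.1 (R 4.3.3). The filter kept 20433 probes, those that 2 or more arrays detected at p under 0.05. In the supplied annotation 16496 probes had 1 symbol, 9 had several, and 16479 were matched to current genes. A gene's brightest kept probe stood for it (10623 genes, 3874 with several probes), and 4181 unnamed kept probes were tested apart. 1 limma model with 4 group means (7 residual and 4.04 prior degrees of freedom) gave the difference of responses and the effects behind it, with 95% intervals and Benjamini-Hochberg adjustment. The script was tested on simulated data.

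Named were the 12 genes of smallest p in each direction, a fixed panel (Fpr2, Anxa1, Cxcl1, Cxcl2, Ppbp, S100a8, S100a9, Il1b, Cxcl10, Cdkn1a, Ifng, Cd3e and Itgax), the largest rises and falls in WT hosts (6 and 3), up to 5 genes with opposite responses and up to 4 members per list. Lists were described by counts and medians. The members, lists and rules were chosen with earlier results of these data known. Alternatives covered background, scaling, filter, probes, chip, replicate number, variance model, the authors' table and leaving out arrays. The number of arrays limits the precision throughout.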

Additional observations from a re-analysis of the deposited data

Results flagged for a closer look

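The response to DX differed between KO and WT hosts, by the test of that difference over the probes without a gene name, for ILMN_1258785 (2.84 on the log2 scale) and ILMN_2822477 (2.63). ILMN_1258785 passed in 23 of 25 alternatives and ILMN_2822477 in 16, and over all kept probes the adjusted p was 0.0153 and 0.111. Neither passed with the chip as a fixed block or with median scaling. In each the response was positive in KO hosts and negative in WT hosts. ILMN_2822477 was at 7.84 and 7.95 in KO DX tumours and at 6.21, 6.80 and 6.39 in KO PBS tumours. It was at 6.37, 6.10 and 5.32 in WT DX tumours and at 7.37, 6.88 and 7.15 in WT PBS tumours. The KO DX tumours were the highest and the WT PBS tumours the next, with no overlap between them and the other groups. That order is favoured by picking probes for a large positive difference. Neither probe has a gene name in the sources used here.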

How the results depend on the processing

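Across 27 alternatives the lower response in KO hosts kept its sign for Clec2d, Cxcl1, S100a8, S100a9, Mylpf, Tnnt3 and Pvalb, as did the higher one of the 12 genes named for it, and the median of the muscle list stayed between -1.91 and -0.80. Signs turned for genes with differences near 0. Anxa1 ran from -0.11 to 0.28 when 1 array was left out, Ifng from -0.73 to 0.23, Cstdc4 from -0.50 to 0.16 and Dlk1 from -0.286 to 0.0505. Cstdc4 was 0.15 without background correction, Itgax -0.0885 in the authors' table (with or without its averaged columns) and -0.27 with the chip as a fixed block, and Dlk1 0.0005 with that block and 0.0275 with array weights. Genes past the adjusted threshold (0 in the reported fit) numbered 5843 in the authors' table, 2 with array weights (Clec2d and Mylpf), 2 with trended robust variances (Clec2d and Cxcl1) and 0 to 1 with 1 array left out. Genes at unadjusted p under 0.05 (498) numbered 6437 in the authors' table, 825 over every probe, 1183 with the chip block, 1284 with array weights and 293 to 977 with 1 array left out. Intervals inside -1 to 1 (7446 genes) numbered 1420 with the chip block. The unnamed probes that passed (2) numbered 0 with median scaling or the chip block, 1491 in the authors' table, 1 with no filter, 6 with array weights, 12 with trended robust variances and 1 to 5 with 1 array left out. ILMN_1258785 was 2.80 with median scaling and 2.46 with the chip block, both short of the threshold, and 2.67 to 2.99 with 1 array left out. ILMN_2822477 missed it at 2.59 with median scaling, 2.63 with no filter, 3.21 with the chip block and without KO DX 1, KO DX 2, KO PBS 1 or KO PBS 3, and ran from 2.32 to 2.85 with 1 array left out. With the replicate block 0 genes passed, 443 had an unadjusted p under 0.05 and 1 unnamed probe passed (ILMN_2822477 was 2.52 and missed). Deviations of same-numbered arrays correlated at -0.29 to 0.30 (15 pairs, 4 over 0.1), which showed no pairing by number. With only 2 or 3 arrays per group this check cannot exclude a pairing. Chosen after seeing the data were 4 more. Without both arrays averaged in the authors' table there were 1021 genes at unadjusted p under 0.05 and 4 unnamed probes, with Anxa1 at -0.0802, Itgax at -0.12 and Dlk1 at 0.067. In the authors' table without its averaged columns there were 4007 genes past the adjusted and 5155 past the unadjusted threshold and 1025 unnamed probes. Without both arrays with Eif2s3y signal there were 812 genes and 1 unnamed probe, with Anxa1 at -0.0112, Cstdc4 at 0.045, Dlk1 at 0.0708 and ILMN_2822477 at 2.71, short of the threshold. Without both arrays of chip 2, 4 unnamed probes passed and Anxa1 was -0.076. The causes were not tested. The random chip block left each count, and the mean of a gene's probes each count of genes, within 1.5 times.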
